A study of Homo sapiens with 6 samples.

Results

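The replication-dependent histone genes supply the histone proteins that package newly made DNA. They were taken as the protein-coding genes with current symbols H1-1 to H1-6, or beginning with H2AC, H2BC, H3C or H4C, which replace the older HIST1H to HIST4H names. This gave 69 of the 58884 gene IDs in the deposited tables: 6 H1, 17 H2A, 18 H2B, 13 H3 and 15 H4 genes. On hg38, 55 lie on chromosome 6 between 25723397 and 27893891, 13 on chromosome 1 and 1, H4C16, on chromosome 12.

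Cells need histones in bulk only while they copy their DNA, and these genes are transcribed mainly in S phase, with the transcription factor NPAT bound at their clusters. Most of them have no introns, and their mRNAs, unlike other mRNAs, carry no poly(A) tail. The transcript ends just after a short hairpin, the histone stem-loop, which is bound by SLBP and is cut with the help of the U7 small nuclear ribonucleoprotein. H2A, H2B, H3 and H4 form the core of the nucleosome, and H1 binds the linker DNA between nucleosomes. Many of the genes encode the same protein or similar ones, but only some are nearly identical in sequence.

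RNA was taken from HCT116, an established line of human colorectal cancer cells, 48 h after transfection. The siMatrin3 group received a pool of siRNAs against Matrin3, a nuclear protein that binds RNA and DNA, and the siCTRL group a non-targeting negative control siRNA. Each group had 3 libraries of total RNA, described in the study's methods as biological triplicates depleted of ribosomal RNA, although the labels name a kit for mRNA. Both groups are the same line, compared at 1 time after a transient knockdown.

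Total estimated counts were 6007630 to 7414040 in siMatrin3 and 4556658 to 8400412 in siCTRL. MATR3 was at 72.5, 67.9 and 71.4 CPM (counts per 1000000 after scaling) in siMatrin3, against 363, 343 and 330.2 CPM in siCTRL, as the labels have it (log2 fold change -2.29 ± 0.06 SE, adjusted p = 7.58e-11). All adjusted p-values are from edgeR's quasi-likelihood test with Benjamini-Hochberg adjustment over the 14334 genes tested, two-sided, and a call means an adjusted p under 0.05. Of 8 epithelial markers 6 were high enough to test and CDX1 was at 0. Their summed level was 1798 to 1897 CPM in siMatrin3 and 1576 to 1723 CPM in siCTRL, and EPCAM and KRT19 rose. Of 8 fibroblast markers 2 were tested (19.3 to 23.2 CPM in siMatrin3 and 20.3 to 21.6 CPM in siCTRL, COL1A2, COL3A1, DCN, LUM and FAP at 0), of 8 blood markers none (at most 2.47 CPM, CD3E and HBB at 0). Of 8 neural markers 4 were tested (110.0 to 127 CPM in siMatrin3 and 122 to 143 CPM in siCTRL, OLIG2 at 0), and MAP2 was lower in siMatrin3. With the replicate number as a block, KRT8 was also called higher (adjusted p = 0.00789) and TUBB3 lower (adjusted p = 0.0173). The part of these marker differences in the histone values was not tested.

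The genes carry the defining 3' end of their kind. A stem-loop of 16 bases was found in annotated transcripts of all 69 genes (GENCODE release 44), in 10 forms. The most common was shared by 40 genes of the H1, H2A, H2B and H3 classes. The second most common, which starts with GGCCC in place of GGCTC, was found in 10 of the 15 H4 genes and in no other class. The sequences below, read 5' to 3' as DNA, show some of these forms in genes named further on. The stem-loop is in capitals, with 5 flanking bases on each side.
H2AC14: acaaaGGCTCTTTTCAGAGCCacttc
H2BC12: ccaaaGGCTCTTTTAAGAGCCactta
H2AC15: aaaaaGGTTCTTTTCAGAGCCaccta
H3C6: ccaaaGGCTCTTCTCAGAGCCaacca
H4C4: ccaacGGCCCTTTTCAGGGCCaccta
H4C1: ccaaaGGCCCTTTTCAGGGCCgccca
H4C11: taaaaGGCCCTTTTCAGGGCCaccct
H4C14: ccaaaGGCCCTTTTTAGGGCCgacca

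The capitals of H2AC14 are the common form, and those of H4C4, H4C1 and H4C11 the second form. The form of H2BC12 was shared by 9 genes and that of H4C14 by 4, all H4, while those of H2AC15 and H3C6 occurred once each. In 11 genes, H2AC6, H2AC25, H2BC6, H2BC21, H2BC26, H3C6, H3C10, H4C8, H4C14, H4C15 and H4C16, an annotated transcript runs more than 100 bases past the hairpin, by 390 in H2AC25 to 4551 in H2BC26. Such longer histone transcripts are known to be able to end in a poly(A) tail. The gene models behind the deposited counts were also long for some genes outside this list. Their mean effective lengths were 2201 bases for H2AC11, 1607 for H3C14, 1607 for H3C15, 1438 for H4C5 and 1147 for H2BC7. The longest GENCODE transcripts of these genes have 493, 522, 518, 412 and 473 bases. The list thus describes GENCODE transcripts and not the models that were counted. The deposited levels per length (TPM), and ranks by them, rest on the counted models, so a long model lowers the level given for its gene.

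As a whole the histone mRNAs were present in bulk in both groups. The 69 genes held 0.778%, 0.708% and 0.728% of all estimated counts in siMatrin3 and 0.780%, 0.827% and 0.787% in siCTRL. A mean of at least 10 estimated counts was reached by 46 genes: H1-2 and H1-4, 13 H2A, 12 H2B, 9 H3 and 10 H4 genes. All 46 also had at least 10 in every library. The lowest gene inside this limit was H3C6, with a mean of 54.8 counts, and the highest outside it was H2BC6 with 9.73. At 0 in all 6 libraries were 9 genes, H1-3, H1-5, H2AC1, H2BC10, H3C7, H3C8, H4C6, H4C7 and H4C13, where a count of 0 allows up to 3 counts, or 0.353 to 0.647 CPM. The test could be made for 47 genes, the 46 and H4C15, which had a mean of 9.29 counts.

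The question of the comparison was whether loss of Matrin3 changed these mRNAs, class by class. Summed over the class, H1 mRNAs were at 1023, 969 and 978 CPM in siMatrin3, against 969.5, 1024 and 969 CPM in siCTRL. H2A mRNAs summed to 1927, 1745 and 1818 CPM in siMatrin3 and 1872, 1989 and 1847 CPM in siCTRL. H2B mRNAs summed to 1969, 1875 and 1843 CPM in siMatrin3 and 1936, 2043 and 1879 CPM in siCTRL. In each of these classes the groups overlapped, and the log2 ratios of the means were 0.00 for H1, -0.06 for H2A and -0.04 for H2B. H3 mRNAs summed to 1300, 1203 and 1264 CPM in siMatrin3 and 1256, 1368 and 1279 CPM in siCTRL. H4 mRNAs summed to 1691, 1617 and 1649 CPM in siMatrin3 and 1636, 1744 and 1640 CPM in siCTRL. Here too the groups overlapped, with log2 ratios of -0.05 for H3 and -0.02 for H4. A class sum does not depend on how reads were divided among copies within the class. It does depend on their division with genes of other classes or outside the 69. Of the 50-base stretches of H2AC17, 67.8% also occur in H3C12. Of those of H3C4 and H2AC7, 96.5% and 83.9% occur in ENSG00000282988, which is not a member. Of those of H3C13, H2BC12 and H2BC18, 61.9%, 51.3% and 47.5% occur in genes outside the 69.

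**Figure D1:**
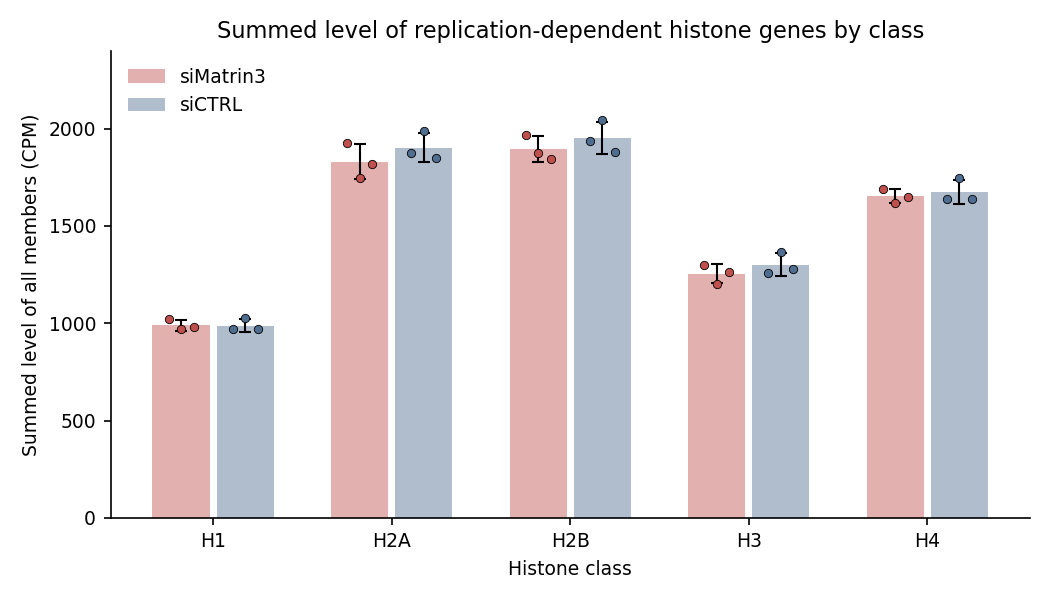
Summed level (y axis, CPM from 0) of all members of each histone class (x axis) in siMatrin3 (red, left) and siCTRL (blue, right); the bar gives the mean over 3 libraries, the whisker its SD and each dot a library. The groups overlap in all 5 classes on this scale.

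All 69 genes together averaged 7624 ± 257 CPM in siMatrin3 and 7817 ± 305 CPM in siCTRL (SD, n = 3 each), a log2 ratio of -0.04. The size of this difference depended on the scale. CPM values here are divided by library totals adjusted by TMM, a scaling that assumes most genes do not change. Without that adjustment the log2 ratio was -0.11, and the shares of all counts given above do not overlap between the groups. Mitochondrial genes held 9.80% to 11.6% of counts in siMatrin3 and 9.03% to 10.2% in siCTRL, and their part in this was not tested. In summed TPM, the deposited values per transcript length, the siMatrin3 libraries lay below the siCTRL libraries without overlap in all 5 classes. The share of all genes without overlap in TPM was not taken. The 5 sums also share 1 scaling per library, so they are not 5 separate results. The 69 genes summed to 13878 ± 743 TPM in siMatrin3 and 15510 ± 323 TPM in siCTRL (SD, n = 3 each), a log2 ratio of -0.16. On log2(TPM + 1) the median of all genes tested was itself at -0.09, and that of the histone genes at -0.19. Where the histone level was lower, fewer cells in S phase and less histone mRNA per such cell cannot be told apart in bulk samples. By flow cytometry the study reported that the cell cycle of HCT116 was unchanged after Matrin3 knockdown. Cell cycle stages were not measured in the libraries used here.

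Gene by gene, 0 of 47 histone genes were called higher and 2 lower in siMatrin3, H2AC14 and H4C4. Over all 14334 genes 5.68% were called higher and 5.18% lower, so that the 2 falls are close to the background. An unadjusted p under 0.05 was reached by 10 of the 47 genes, against 25.1% of all genes. DESeq2 also called 0 higher and 2 lower, but the share of all genes that it called was not taken. With the replicate number as a block, a fit in which 8.39% of all genes were called higher and 7.37% lower, 2 histone genes were higher (H4C1 and H4C12) and 5 lower (H2AC14, H2BC13, H2BC14, H4C4 and H4C11). In CPM the groups did not overlap for 2 genes that were higher and 6 that were lower in siMatrin3, against 15.0% and 14.7% of all genes. The estimated change was negative in 34 of the 47 genes, with a median of -0.07 on the log2 scale, and 38 of the 47 lay within 0.25 of 0. Over all genes tested, 50.1% were negative, the median was -0.00065, and 67.7% lay within 0.25 of 0.

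**Figure D2:**
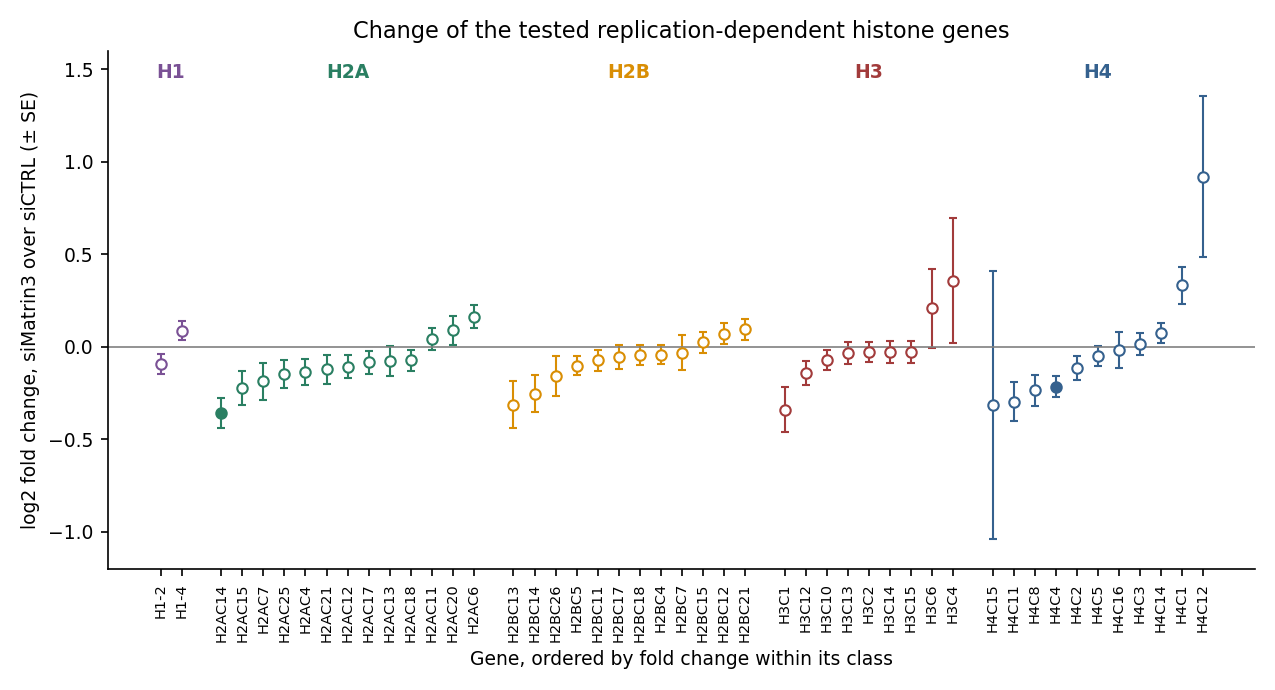
Estimated log2 fold change (y axis, siMatrin3 over siCTRL) with its SE for the 47 tested histone genes (x axis, by class); filled points mark an adjusted p under 0.05. H2AC14 and H4C4 are the filled points, and H4C12, H4C15 and H3C4 have the widest errors.

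Of the linker histones, only H1-2 and H1-4 carried more than a handful of counts. In mean TPM they took 50.4% and 49.5% of the class. H1-2 was at 463, 435 and 422 CPM in siMatrin3, against 457, 483 and 468 CPM in siCTRL (log2 fold change -0.09 ± 0.05 SE, adjusted p = 0.297). H1-4 was at 559, 534 and 556 CPM in siMatrin3, against 510.3, 540.5 and 499 CPM in siCTRL (0.09 ± 0.05, adjusted p = 0.313). Neither passed, and the estimates were of opposite sign, although on log2(TPM + 1) that of H1-4 was also negative (-0.03). H1-6, a linker histone known from the testis and named here after its values were seen, had 1, 1 and 1 counts in siMatrin3 and 7, 5 and 3 in siCTRL, too few to be tested.

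In the H2A class, H2AC14 fell. It was at 96.3, 81.3 and 77.4 CPM in siMatrin3, against 108, 109 and 110.4 CPM in siCTRL, with no overlap (log2 fold change -0.36 ± 0.08 SE, adjusted p = 0.0113, and 0.00355 with the replicate block). H2AC14 (ENSG00000276368, chromosome 6, 27814302 to 27814777 on hg38, minus strand) encodes a core H2A of the nucleosome. Its call was lost without siMatrin3 replicate 3 (-0.30, adjusted p = 0.0538), without siCTRL replicate 3 (-0.35, adjusted p = 0.0550) and with effective lengths as an offset (-0.37, adjusted p = 0.0925). Another limit is sequence: 66.3% of the 50-base words in its transcript, the length of the reads, also occur in H2AC13.

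H2AC13 itself was at 239, 207 and 211 CPM in siMatrin3, against 237, 253 and 203 CPM in siCTRL (-0.08 ± 0.08, adjusted p = 0.605). With the reads of H2AC13 and H2AC14 merged, an alternative chosen after the data were seen, the pair was at 335, 288 and 288 CPM in siMatrin3 and 345, 362 and 313 CPM in siCTRL. The groups then overlapped and the pair was not called (log2 fold change -0.16 ± 0.07, adjusted p = 0.166). The call of H2AC14 thus held only where its reads were kept apart from those of H2AC13.

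The other H2A genes did not pass. H2AC18, the highest of the class with 28.1% of its TPM, was at 523, 455 and 508 CPM in siMatrin3, against 526, 535 and 505 CPM in siCTRL (-0.07, adjusted p = 0.474). H2AC15 was lower without overlap, at 25.6, 27.7 and 24.4 CPM in siMatrin3, against 30.5, 30.1 and 30.1 CPM in siCTRL (-0.22 ± 0.09, adjusted p = 0.145). On the other side, H2AC6 was at 216, 203 and 219.7 CPM in siMatrin3, against 179, 206 and 183 CPM in siCTRL (0.16 ± 0.06, adjusted p = 0.123). This value passed without siCTRL replicate 2, the highest of its group (0.23, adjusted p = 0.0466). H2AC20, the partner of H2BC21, had a log2 fold change of 0.09 (adjusted p = 0.537), and the class median was -0.11, with 10 of 13 estimates negative.

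In the H2B class 0 of 12 genes passed. H2BC12 and H2BC5 were the highest in TPM, with 17.6% and 16.2% of the TPM of the class. H2BC18, named after its values were seen, had a mean of 2749 counts against 1331 for H2BC12. The counted model of H2BC18 was longer, with a mean effective length of 911 bases against 332 for H2BC12. H2BC12 was at 225, 212 and 202 CPM in siMatrin3, against 201, 208 and 199 CPM in siCTRL (0.07, adjusted p = 0.492). H2BC5 was at 252, 243 and 252 CPM in siMatrin3, against 259, 282 and 259.8 CPM in siCTRL, lower without overlap but by little (-0.10 ± 0.05, adjusted p = 0.264). H2BC21, whose only annotated transcript runs 1729 bases past its stem-loop, was higher without overlap, at 139.7, 143 and 138 CPM in siMatrin3, against 130.1, 136 and 127 CPM in siCTRL (0.09 ± 0.06, adjusted p = 0.340).

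H2BC13 and H2BC14 had the lowest estimates of the class. H2BC13 was at 49.9, 50.4 and 41.1 CPM in siMatrin3, against 60.4, 68.3 and 45.4 CPM in siCTRL (-0.31 ± 0.13, adjusted p = 0.141). H2BC14 was at 67.2, 62 and 52.6 CPM in siMatrin3, against 75.3, 77.8 and 63.4 CPM in siCTRL (-0.25 ± 0.10, adjusted p = 0.123). In both genes replicate 3 was the lowest of each group, and within each replicate number siMatrin3 was below siCTRL. With the replicate block both were called lower (adjusted p = 0.0170 for H2BC13 and 0.0192 for H2BC14). H2BC13 also passed without siCTRL replicate 3 (-0.46, adjusted p = 0.0319) and with no count filter (-0.30, adjusted p = 0.0190), but was at -0.15 (adjusted p = 0.529) without siCTRL replicate 2. H2BC14 was at -0.16 (adjusted p = 0.376) without siMatrin3 replicate 3.

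In the H3 class 0 of 9 genes passed. H3C2, with 34.1% of the TPM of the class, was at 270.4, 258 and 265 CPM in siMatrin3, against 256, 282 and 270.3 CPM in siCTRL (-0.03, adjusted p = 0.799). H3C13, with 21.6%, had a log2 fold change of -0.04 (adjusted p = 0.761). H3C1 had the lowest estimate, at 43.5, 34.1 and 39.0 CPM in siMatrin3, against 49, 57.5 and 40.3 CPM in siCTRL (-0.34 ± 0.12, adjusted p = 0.0969). It passed only without siCTRL replicate 3 (-0.46, adjusted p = 0.0428) and with no count filter (-0.32, adjusted p = 0.0141), and was at -0.18 (adjusted p = 0.408) without siCTRL replicate 2. H3C12 was at -0.14 (adjusted p = 0.201). H3C4 (0.36 ± 0.34, adjusted p = 0.567) and H3C6 (0.21 ± 0.21, adjusted p = 0.599) had the highest estimates, at low levels and with wide errors, and without siMatrin3 replicate 1 H3C4 was at -0.20.

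In the H4 class H4C4 fell. It was at 141, 137 and 131 CPM in siMatrin3, against 159, 162 and 154 CPM in siCTRL, with no overlap (log2 fold change -0.22 ± 0.06 SE, adjusted p = 0.0262, and 0.0109 with the replicate block). H4C4 (ENSG00000277157, chromosome 6, 26188710 to 26189112 on hg38, minus strand) shares no 50-base word with another gene. The change is small, however, and its adjusted p rose past the threshold without siMatrin3 replicate 2 (0.0522), siMatrin3 replicate 3 (0.110), siCTRL replicate 1 (0.0696), siCTRL replicate 2 (0.0933) or siCTRL replicate 3 (0.0567), fits with fewer libraries. It also missed with no count filter (0.0583) and with effective lengths as an offset (0.157). The log2 fold change stayed between -0.24 and -0.19 in these fits.

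H4C1 was the nearest to a rise. It was at 32.2, 32.7 and 34.5 CPM in siMatrin3, against 25.5, 29.3 and 23.4 CPM in siCTRL, with no overlap (0.33 ± 0.10, adjusted p = 0.0509). It was called with the replicate block (0.34, adjusted p = 0.0328), with no count filter (0.35, adjusted p = 0.0308), with a mean of at least 50 counts (0.32, adjusted p = 0.0449) and without siCTRL replicate 2 (0.44, adjusted p = 0.0300). H4C1 (ENSG00000278637, chromosome 6, 26021649 to 26022050, plus strand) shares no 50-base word with another gene either. H4C8 (-0.24 ± 0.08, adjusted p = 0.0975) and H4C2 (-0.12 ± 0.06, adjusted p = 0.291) were lower without overlap between the groups and were not called, and H4C8 was at -0.15 (adjusted p = 0.349) without siCTRL replicate 2.

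H4C11 and H4C12, which are nearly identical, had opposite estimates. H4C12 was at 152, 168 and 60.2 CPM in siMatrin3, against 90.2, 93.9 and 13.8 CPM in siCTRL (0.92 ± 0.44, adjusted p = 0.209, and 1.0 with an adjusted p = 5.42e-04 in the replicate block). H4C11, the highest H4 gene with 24.8% of the TPM of the class, was at 270.3, 248 and 344 CPM in siMatrin3, against 323, 338 and 398 CPM in siCTRL (-0.30 ± 0.10, adjusted p = 0.0861, and 0.00182 in the block). In replicate 3 of both groups H4C12 was at its lowest and H4C11 at its highest, and without siCTRL replicate 3 H4C12 was at 0.46 (adjusted p = 0.461). H4C11 also passed without siMatrin3 replicate 3 (-0.45, adjusted p = 0.00996), with a mean of at least 50 counts (-0.31, adjusted p = 0.0397) and with no count filter (-0.28, adjusted p = 3.76e-04). Of their 50-base words 92.1% (H4C11) and 92.6% (H4C12) occur in the partner. Merged, the pair was at 422, 415 and 404 CPM in siMatrin3 and 413, 432 and 411 CPM in siCTRL, with a log2 fold change of -0.02 ± 0.05 (adjusted p = 0.858).

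**Figure D3:**
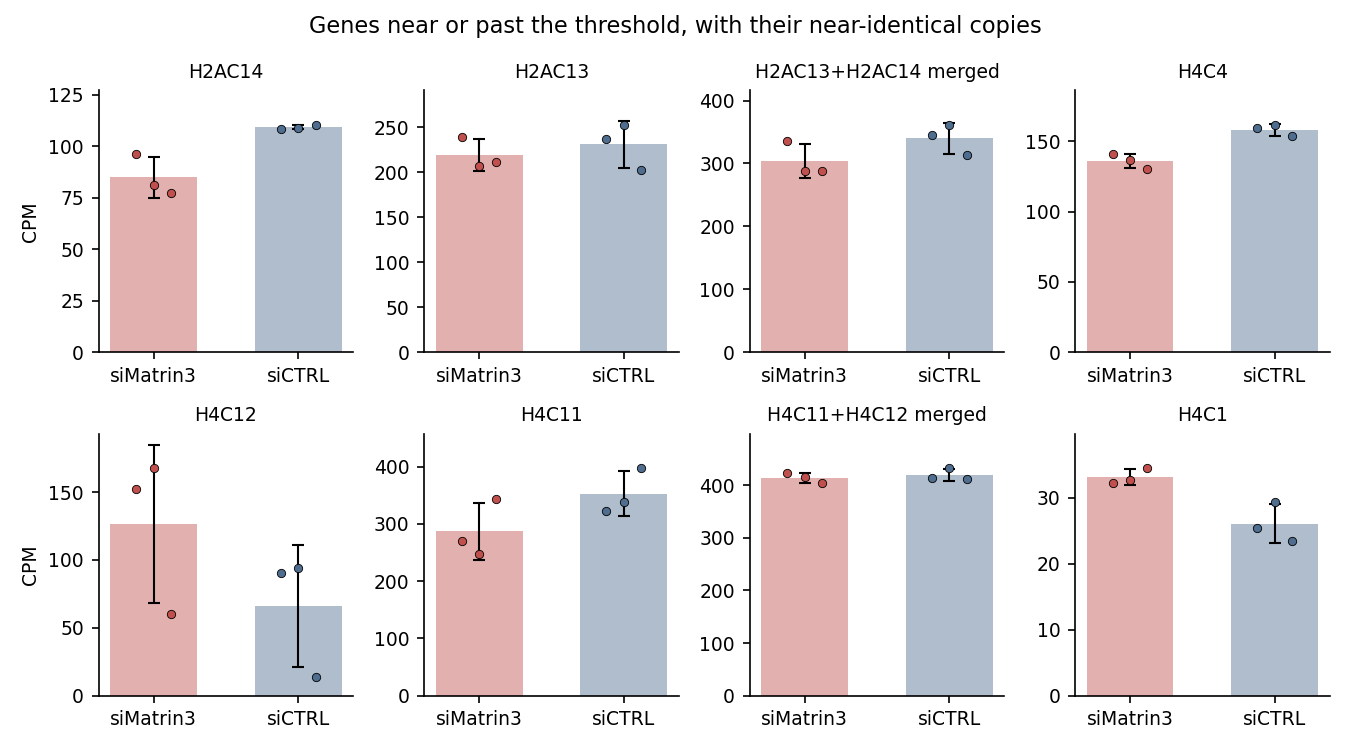
CPM (y axes, which start at 0 and differ between panels) of single histone genes and of near-identical copies merged, in siMatrin3 (left) and siCTRL (right); bars give the mean of 3 libraries, whiskers the SD and dots the libraries. H4C12 is lowest and H4C11 highest in replicate 3 of each group, their merged level lies between 404 and 432 CPM, and merging H2AC14 with H2AC13 brings the groups to overlap.

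Such sharing touched some of the genes and left most with little of it. More than 50% of the 50-base words occurred in another gene for 16 of the 69, 15 of them tested, while 49 shared under 10%, 28 of them tested. On chromosome 1 the duplicated H3C14 and H3C15 carried equal counts, while H2AC19, beside H2AC18, had 0, 34.3 and 0 counts in siMatrin3 and 0 in every siCTRL library. H4C14 was at 496, 471 and 499.5 CPM in siMatrin3, against 451, 490.4 and 449 CPM in siCTRL (0.07, adjusted p = 0.423). H4C15 was at 2.99, 0.709 and 0 CPM in siMatrin3, against 2.14, 1.26 and 1.64 CPM in siCTRL (-0.32 ± 0.72, adjusted p = 0.837). Merged, H4C14 and H4C15 were at 0.07 (adjusted p = 0.433) and H2AC18 and H2AC19 at -0.07 (adjusted p = 0.501). With all 8 sets of copies merged, H4C4 alone was called. The annotated spans of 11 tested genes overlap another gene, and 7 of them (H2AC7, H2AC17, H2AC21, H2BC4, H3C4, H3C12 and H4C3) 1 with a mean of at least 10 counts, so that their reads are uncertain for that reason too. H2AC14, H4C1 and H4C4 are not among them.

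Along the clusters the genes differed widely in level, and some neighbours were at or near 0 together. On chromosome 6 all members from H2BC8 to H2BC10 (26216200 to 26273412, 10 genes) were under a mean of 10 counts apart from H3C6, and 6 of them were at 0. Over all 6 libraries the 10 genes had 349 counts in sum, and 20 without H3C6. The neighbours on either side, H4C5 and H4C8, were at a mean of 155 and 139.8 TPM. A second stretch near 0, of 4 genes, ran from H2AC16 to H4C13 (27865317 to 27873534), with 2.11 counts in sum. Both stretches were chosen after their values were seen and every library of both groups enters these sums.

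**Figure D4:**
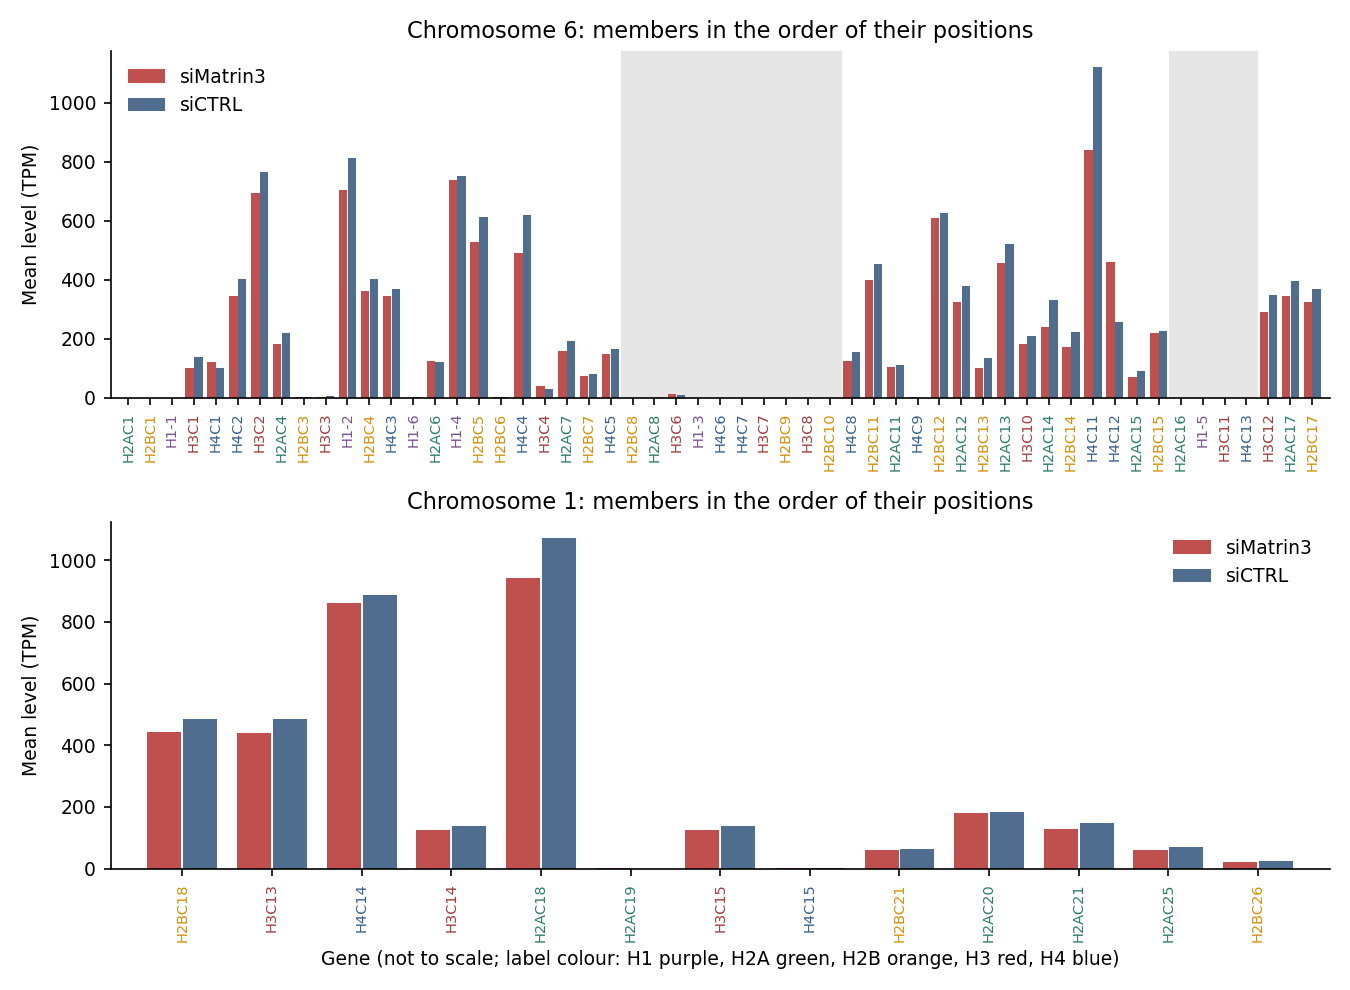
Mean TPM (y axes, from 0) in siMatrin3 (red, left bar) and siCTRL (blue, right bar) of the histone genes of chromosome 6 (upper panel) and chromosome 1 (lower panel), in the order of their positions and not to scale. The grey areas are the stretches from H2BC8 to H2BC10 and from H2AC16 to H4C13, where only H3C6 is above the axis, at a mean of 10.9 TPM.

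Many H2A and H2B genes lie back to back, sharing the DNA between their starts. Their promoters are known to hold an octamer, the site of the factor POU2F1. The octamer ATTTGCAT, searched on both strands from 250 bases before to 50 after the start (RefSeq, GRCh38.p14), stood in 14 of 18 H2B and 11 of 16 H2A promoters and in 0 of 6 H1 and 0 of 13 H4 promoters, against 1.77% of 35116 promoters of all genes. Among 11 H3 promoters it stood only in the entry for H3C4, whose window is that of H2AC7, so that no separate octamer of an H3 gene is shown. The windows below show it in capitals with 10 flanking bases, in 2 back-to-back pairs and in H2BC12, each in the direction of the named gene, so that it reads ATGCAAAT from the other side.
H2AC14: aaatgttattATGCAAATtaggagtaga
H2BC14: tctactcctaATTTGCATaataacattt
H2AC20: taaccaccttATGCAAATtagggctccg
H2BC21: cggagccctaATTTGCATaaggtggtta
H2BC12: tcttcaccttATTTGCATgagaggtcct

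The sequences of H2AC14 and H2BC14 are 1 stretch of DNA read from both sides, as are those of H2AC20 and H2BC21. The TATA box letters TATAAA stood in 65.6% of the 64 histone promoters with an entry, against 11.5% of all promoters. CCAAT stood in 84.4% against 34.6%, in all H1, H2A, H2B and H3 promoters and 3 of 13 H4 promoters. A match is only that of letters. There were 12 back-to-back H2A and H2B pairs, 170 to 251 bases apart. Both genes were tested in 10 and neither in 2, so that 0 pairs had only 1 gene high enough to test. Of the 10 pairs 6 had estimates of the same sign, 5 of them negative. With 10 of 13 tested H2A and 9 of 12 tested H2B estimates negative, many pairs would share a sign in any pairing. No effect of the shared DNA is read from this count. H2AC14 (-0.36) and H2BC14 (-0.25) were both negative, H2AC20 (0.09) and H2BC21 (0.09) both positive but negative on log2(TPM + 1), and H2BC13 (-0.31) stood beside H2AC13 (-0.08). H2AC15 (-0.22) and H2BC15 (0.02) were of opposite sign.

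The estimates were also set out by stem-loop form. The 26 tested genes with the common form had a median log2 fold change of -0.08 and ranged from -0.36 to 0.36. The 8 with the second form also had a median of -0.08 and ranged from -0.30 to 0.33, and the 6 with the form of H2BC12 had a median of -0.06. Of the genes with transcripts running past the stem-loop, 10 were tested, and 0 of them were called in either direction, against 5.68% (higher) and 5.18% (lower) of all genes, a background at which 0 of 10 says nothing about these genes.

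The factors that make histone mRNAs were compared next. Of 40 genes of histone transcription and 3' end processing 39 were tested, and 2 of these rose and 3 fell, or 2 and 4 in the blocked fit. The shares over all genes were 5.68% and 5.18%, and 8.39% and 7.37% when blocked. The median of the list was 0.03. SLBP, the protein of the stem-loop, was at 99.0, 105 and 103 CPM in siMatrin3, against 98.2, 108 and 99.3 CPM in siCTRL (0.00 ± 0.06, adjusted p = 0.990). NPAT was lower without overlap and did not pass, at 40.2, 39.7 and 32.4 CPM in siMatrin3, against 40.8, 46.2 and 41.9 CPM in siCTRL (-0.21 ± 0.10, adjusted p = 0.202). POU2F1, the octamer factor, named after its values were seen, was at 96.6, 96.3 and 79.2 CPM in siMatrin3, against 110.7, 109.4 and 99.2 CPM in siCTRL. It too was lower without overlap and did not pass (-0.23 ± 0.08, adjusted p = 0.0907), but was called lower with the replicate block (adjusted p = 0.0174). The U7 RNA gene RNU7-1 was listed at 0 in all libraries. Whether these libraries could recover this small RNA was not tested, so the 0 is not read as absence.

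The genes of this list that fell were AGO2, an Argonaute protein, and the E cyclins CCNE1 and CCNE2, which activate CDK2 at the start of S phase. AGO2 was at 373, 346 and 364 CPM in siMatrin3, against 543, 549 and 647 CPM in siCTRL (-0.68 ± 0.07, adjusted p = 5.78e-05). CCNE2 was at 13.8, 18.5 and 11.5 CPM in siMatrin3, against 27.0, 26.1 and 25.2 CPM in siCTRL (-0.84 ± 0.15, adjusted p = 0.00278), and CCNE1 fell by 0.37 (adjusted p = 0.0203). With effective lengths as an offset none of the 3 passed, with AGO2 at -0.30 (adjusted p = 0.0701), CCNE2 at -0.76 (0.0568) and CCNE1 at -0.33 (0.236). CCNE1 also missed without siMatrin3 replicate 1 or 3 or siCTRL replicate 2 or 3 (adjusted p of 0.0504 to 0.1001). CSTF1, a cleavage stimulation factor, rose (0.30 ± 0.08, adjusted p = 0.0238), as did CPSF1 of the cleavage and polyadenylation complex, named after its value was seen (0.27, adjusted p = 0.0271). CSTF1 did not pass in DESeq2 (adjusted p = 0.0672) or without any 1 library other than siMatrin3 replicate 2 (adjusted p of 0.0552 to 0.0970).

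Genes listed as replication-independent histone variants were set beside them. Of 11 tested genes for such variants 0 rose and 1 fell, against 5.68% and 5.18% of all genes, with a median of 0.04. With the replicate block MACROH2A2, named after its value was seen, was called higher (0.26, adjusted p = 0.0348).

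Of 32 tested histone chaperones, which carry histones to and from DNA, 6 were called higher and 2 lower, or 8 and 3 in the blocked fit. Over all genes 5.68% were called higher and 5.18% lower, or 8.39% and 7.37% when blocked. The median of the list was 0.03. ANP32B rose (0.38 ± 0.05, adjusted p = 8.80e-04), as did SPTY2D1 (0.47 ± 0.08, adjusted p = 0.00241) and IPO4, an importin that takes histones into the nucleus (0.32 ± 0.07, adjusted p = 0.00995). UBN1, a subunit of the HIRA complex, fell (-0.34 ± 0.06, adjusted p = 0.00496). ANP32B was at 235, 216 and 226 CPM in siMatrin3, against 173, 179 and 169 CPM in siCTRL. On log2(TPM + 1) 0 chaperones passed in either direction, but the share of all genes called on that scale was not taken. With effective lengths as an offset UBN1 was at -0.18 (adjusted p = 0.333) and IPO4 at 0.30 (adjusted p = 0.130), and IPO4 also missed without siMatrin3 replicate 1 (adjusted p = 0.0515) or siCTRL replicate 3 (0.0581).

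Genes of S phase, when histone mRNAs are made, went both ways. Of 56, all tested, 8 rose and 6 fell (10 and 6 when blocked), against 5.68% and 5.18% of all genes (8.39% and 7.37% when blocked). Their median was 0.01, and SLBP, CDK2 and the E cyclins are also in the list of histone transcription and processing. MCM2, named after its value was seen and called higher (0.24, adjusted p = 0.0211), is also in the list of chaperones. MCM5 (0.36, adjusted p = 0.00124) and MCM3 (0.28, adjusted p = 0.00606), subunits of the replicative helicase, rose. RRM2, a subunit of ribonucleotide reductase, fell (-0.38, adjusted p = 2.99e-04). With effective lengths as an offset RRM2 was at -0.22 (adjusted p = 0.116) and MCM3 at 0.25 (adjusted p = 0.137), and on log2(TPM + 1) none of the 3 passed, with MCM3 at 0.14. Of 24 genes of G2 and mitosis, read against the same shares of all genes, 1 rose and 2 fell (3 and 2 when blocked), with a median of 0.06. These were BIRC5 (0.25, adjusted p = 0.0159), KIF23 (-0.77, adjusted p = 3.48e-05) and CENPE (-0.50, adjusted p = 0.0250). The call of CENPE was lost without any 1 library other than siMatrin3 replicate 2 (adjusted p of 0.0507 to 0.0960), with the offset (-0.81, adjusted p = 0.0709) and on log2(TPM + 1) (-0.83, adjusted p = 0.108). That of BIRC5 was lost without siMatrin3 replicate 2 (0.0527) or siCTRL replicate 3 (0.0755), with the offset (0.225) and on log2(TPM + 1), where its log2 fold change was 0.12.

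**Figure D5:**
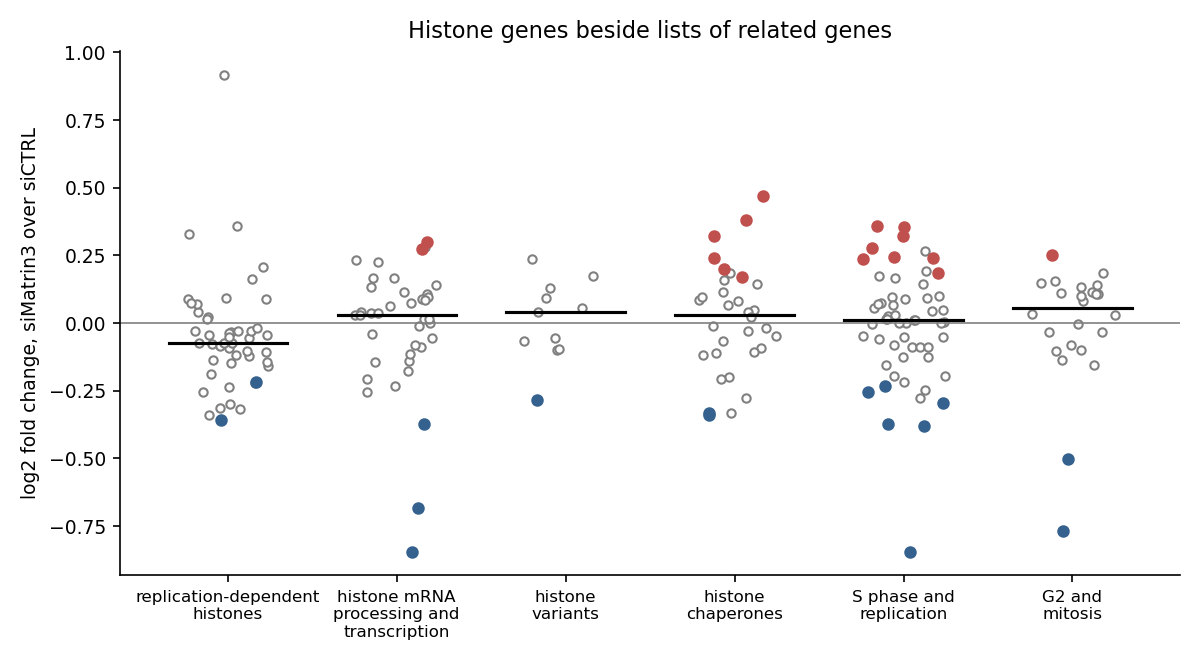
Estimated log2 fold change (y axis, siMatrin3 over siCTRL) of the tested genes of 6 groups (x axis, points spread sideways at random); red points were called higher, blue points lower, open points not, and black lines are medians. The histone genes have 2 blue points and a median of -0.07, and the other 5 medians lie between 0.01 and 0.06.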

How the data were processed

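Tools named in the submitters' notes are cutadapt, TopHat and RSEM, with hg19 as the build. The deposited expected counts are RSEM's estimates per gene from the authors' alignments, which need not be whole and carry no scaling across libraries. The deposited TPM values were scaled by the authors per length and per library. The authors' effective lengths in bases served as an offset and to show how long the counted gene models were. FPKM values were not used. Whether reads were counted by strand is not given in the sources used here. Positions and sequences come from GENCODE release 44 on hg38 (65 members matched by gene ID and 4 by transcript ID) and from RefSeq. Shared words and transcript ends are those of GENCODE transcripts, which for some genes differ in length from the models that RSEM counted.

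The members and gene lists were chosen with earlier results of these data known. Counts were rounded, filtered by filterByExpr (minimum count 10, total 15), scaled by TMM and tested with edgeR 4.0.16 in R 4.3.3, with group as the only term. The biological coefficient of variation was 6.44%. Libraries of a group differed by more than counting noise (chi-square over degrees of freedom of 2.67 to 4.39). Libraries with the same replicate number deviated together (correlations of 0.164, 0.152 and 0.151 over 11457 genes), so the numbers were taken to pair them. The p-values measure the spread between cultures of 1 line, and floors cover counting error only.

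Genes were named by rule: MATR3, members past the threshold or without overlap, the 2 of each class with the highest TPM, largest rise and largest fall, up to 4 called genes of each other list with the lowest p, SLBP and NPAT. The values of 1 gene that this rule names are not reported here. Alternatives used DESeq2 1.42.0 and limma 3.58.1. Scripts were tested on simulated data.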

Additional observations from a re-analysis of the deposited data

How the results depend on the processing

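In the fit with the replicate number as a block, which the pairing of the libraries allows, 2 histone genes were called higher and 5 lower, against 0 and 2 without it. The block also brought calls of higher genes to 1 among the histone variants and 3 among genes of G2 and mitosis, and brought lower calls among neural markers to 2, against 1 without it. Among the other groups of genes it moved no count by over 1.5 times. Histone genes called higher came to 3 with no count filter and 1 with a mean of at least 50 counts. Those called lower came to 4 with no filter, 1 with near-identical copies merged, 0 with effective lengths as an offset and 0 at an adjusted p of 0.01. With the offset, higher and lower calls were 0 and 0 among histone processing and transcription factors, 0 lower among variants, 2 and 0 among chaperones, 1 and 0 among S-phase genes, and 0 and 1 among genes of G2 and mitosis. On log2(TPM + 1), tested with limma, they were 0 and 1 among processing factors, 0 lower among variants, 0 and 0 among chaperones, 0 and 1 among S-phase genes, and 0 and 1 among genes of G2 and mitosis. At an adjusted p of 0.01 they were 0 higher among processing factors, 3 and 1 among chaperones, 3 and 2 among S-phase genes, and 0 and 1 among genes of G2 and mitosis. DESeq2 called 1 processing factor higher. Shares of all genes called were taken only for the main and the blocked fit. For the other settings, fits without 1 library included, a loss or gain of calls cannot be said to be particular to a list. The cause of these differences was not tested.

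The median log2 fold change on log2(TPM + 1) was -0.12 for H1, -0.22 for H2A, -0.17 for H2B, -0.14 for H3, -0.16 for H4 and -0.19 for all members, and that of H1 was -0.30 with no count filter, where H1 genes with a few counts enter. Scaled by total count alone, the log2 ratios of the summed levels were -0.073 for H1, -0.13 for H2A, -0.12 for H2B, -0.13 for H3, -0.10 for H4 and -0.11 for all. In summed TPM they were -0.12 for H1, -0.21 for H2A, -0.16 for H2B, -0.17 for H3, -0.13 for H4 and -0.16 for all.

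With each library left out in turn, histone calls ranged from 0 to 2 higher and 1 to 2 lower, and the MATR3 log2 fold change from -2.32 to -2.25. Calls ranged from 0 to 1 higher and 2 to 4 lower for processing factors, 0 to 0 higher and 0 to 1 lower for variants, 2 to 5 higher and 1 to 4 lower for chaperones, 3 to 7 higher and 2 to 5 lower for S-phase genes, and 0 to 1 higher and 1 to 3 lower for genes of G2 and mitosis. Class medians ranged from -0.03 to 0.03 (H1), -0.16 to -0.07 (H2A), -0.08 to -0.03 (H2B), -0.07 to -0.01 (H3), -0.09 to -0.01 (H4) and -0.11 to -0.03 (all), and summed levels from -0.02 to 0.03 (H1), -0.10 to -0.02 (H2A), -0.07 to -0.01 (H2B), -0.08 to -0.01 (H3), -0.04 to 0.01 (H4) and -0.065 to -0.0013 (all). Among 44 single genes followed besides MATR3, 11 that were not called changed sign in at least 1 alternative. H1-4, H2AC20, H2BC12, H2BC21 and H4C14, positive in CPM, lay between -0.05 and -0.02 on log2(TPM + 1). H2AC13, H3C2 and H3C13 were near 0 without siCTRL replicate 2, SLBP reached -0.07 on log2(TPM + 1), H3C4 was at -0.20 without siMatrin3 replicate 1 and H4C15 at 0.24 without siMatrin3 replicate 3. Levels of 3 counts or fewer, 0.353 to 0.647 CPM, cannot be told from 0 at this depth.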
